A study of Mus musculus with 6 samples.

Results

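The bone-related regulators *Tnfrsf11b*, *Wisp1* and *Tmem119* are described here in RNA sequencing libraries from infant mice, 6 days after birth (P6), and adult mice, 56 days after birth (P56). They are 3 of the 312 genes in the deposited table, taken by symbol and chosen as regulators known from bone with their P6 and P56 values already in view. Their comparison between the ages is therefore given as a description without a test. Each age is represented by 3 libraries, and the groups differ in age alone as far as the sources state, with no allele or treatment named for either. The labels call the material adipose tissue macrophages, the phagocytes of fat, whereas the paper lists depots of inguinal adipose tissue (iAT) from the inbred mouse strain C57BL/6. The paper describes its mice in general as wild-type and of both sexes, and the sex behind each library, any pooling of animals and the way macrophages were obtained are not stated for these libraries.

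*Tnfrsf11b* encodes osteoprotegerin, a secreted decoy receptor of the tumor necrosis factor receptor superfamily. It binds RANKL, the product of *Tnfsf11*, and so keeps this ligand from its receptor RANK on osteoclast precursors, the cells of the macrophage lineage that become bone-resorbing osteoclasts. *Wisp1*, now named *Ccn4*, encodes a secreted matricellular protein of the CCN family and was named for its induction by Wnt1, one of the ligands of the Wnt pathway that also guides bone formation. *Tmem119* encodes a single-pass membrane protein that promotes osteoblast differentiation and is widely used as a marker of microglia, the macrophages of the brain. In fat, the Wnt pathway is known for restraining the differentiation of preadipocytes.

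None of the macrophage or adipocyte marker genes looked for was among the listed genes. Of the fixed lists, 0 of 14 macrophage, 0 of 10 microglia, 0 of 10 adipocyte, 0 of 11 fibroblast and preadipocyte, 0 of 8 endothelial and 0 of 8 lymphocyte markers were listed. The labelled cell type could therefore not be checked by its own markers. Of the smooth muscle and pericyte markers 5 of 10 were listed, and of the skeletal muscle markers 2 of 9. The 5 smooth muscle and pericyte markers were present in every library, with a summed TPM between 623.0 and 1263. Which cells this RNA came from was not tested. Counts over the listed genes summed to 782852 to 816309 per P6 library and to 497044 to 671747 per P56 library. The depth of the whole library, recovered by dividing counts by FPKM (fragments relative to transcript length and to sequencing depth) and expressed relative to the mean of the libraries, was between 1.09 and 1.16 at P6 and between 0.795 and 0.937 at P56. Because the P6 libraries were deeper, raw counts are larger at P6 for a gene whose share of the library is equal. The library P56 replicate 3 was distant from the others of its age, with a chi-square per gene at equal depth of 44.9 and 22.6 against them, while the other pairs of libraries of one age lay between 8.62 and 9.83. The values of *Tnfrsf11b*, *Wisp1* and *Tmem119* without this library are given together after their levels, and without it the pathway lists kept 13 calls, 9 higher and 4 lower at P6.

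*Tnfrsf11b* (gene ID 18383) was a low-level transcript at P6 and had few counts at P56. Its counts were 182, 166 and 198 in P6 replicates 1, 2 and 3, against 12, 14 and 5 in P56 replicates 1, 2 and 3. In TPM, which corrects for transcript length and gives a transcript's share of all transcripts, these values were 7.96, 7.43 and 8.16 at P6 and 0.70, 0.85 and 0.32 at P56. Every P6 library lay above every P56 library on both scales. The mean level was 7.85 ± 0.377 TPM at P6 and 0.623 ± 0.273 TPM at P56 (SD, n = 3 libraries each), a ratio of 12.6. At the recovered depth the log2 fold change (P6 over P56) was 3.76 with a standard error of 0.24, the second highest of 310 genes fitted. The summed counts of 546 and 31 gave a ratio at this depth of 13.7, with a 95% exact binomial interval from 9.50 to 20.3 that covers counting error only.

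*Wisp1* (gene ID 22402) followed the same pattern at a similar level. Its counts were 300, 276 and 250 at P6 and 29, 25 and 12 at P56. The TPM were 7.24, 6.81 and 5.67 at P6 and 0.93, 0.83 and 0.42 at P56. Here too the ages did not overlap, and the lowest P6 library was several times the highest P56 library. The mean level was 6.57 ± 0.811 TPM at P6 and 0.727 ± 0.270 TPM at P56 (SD, n = 3 libraries each), a ratio of 9.05. At the recovered depth its log2 fold change was 3.28 with a standard error of 0.21, the fourth highest of the 310 genes. The summed counts of 826 and 66 gave a ratio at this depth of 9.70, with a 95% exact interval from 7.54 to 12.7.

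*Tmem119* (gene ID 231633) behaved differently from both. It was the most abundant of these genes in every library, with 713, 667 and 739 counts at P6 and 668, 586 and 488 counts at P56. The TPM were 42.52, 40.68 and 41.51 at P6 and 53.07, 48.32 and 42.31 at P56. The ages overlapped on both scales, in TPM through P56 replicate 3 alone, and the side on which the mean was higher depended on the scale. The mean count was 706 ± 36.5 at P6 and 581 ± 90.1 at P56, whereas the mean level was 41.6 ± 0.921 TPM at P6 and 47.9 ± 5.39 TPM at P56 (SD, n = 3 libraries each). Counts divided by the recovered depth lay between, with a mean of 627 ± 13.8 at P6 and 662 ± 49.4 at P56. The log2 fold change was −0.08 at the recovered depth (standard error 0.09), 0.28 with equal library sizes (standard error 0.17) and −0.19 on the log2(TPM + 1) scale (standard error 0.12). The median of all fitted genes moved in the same way with the scaling, being −0.03, 0.34 and −0.14 respectively, so *Tmem119* lay slightly below that median on each scale. Its fold change at the recovered depth was the 36th smallest in size of the 310 genes.

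**Figure D1:**
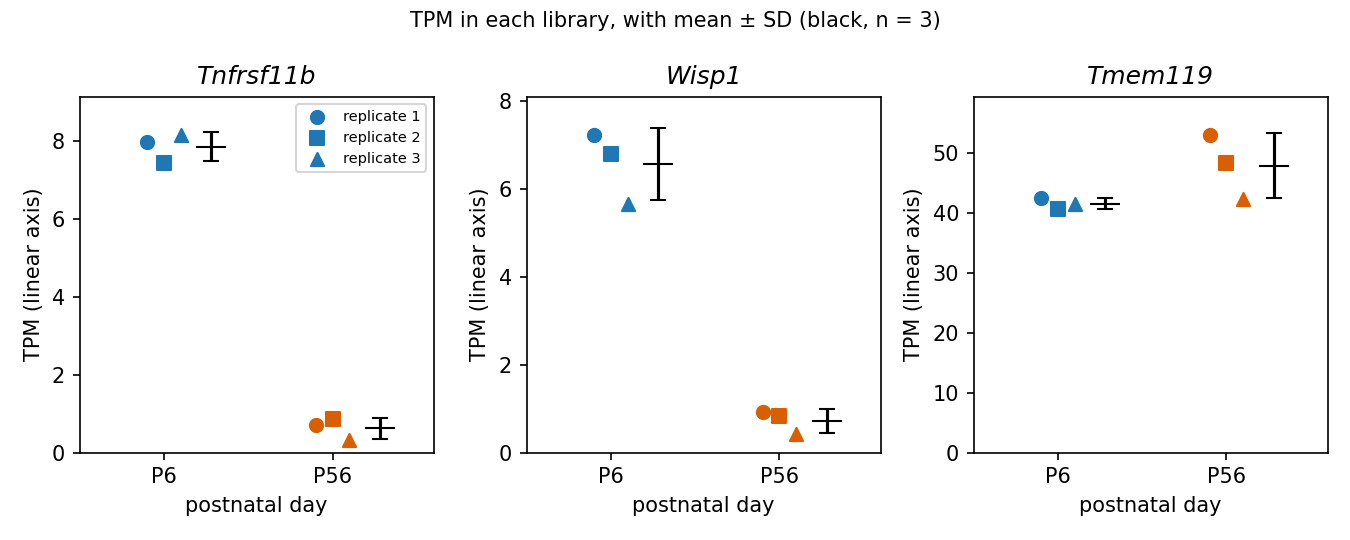
TPM of *Tnfrsf11b*, *Wisp1* and *Tmem119* (linear vertical axes starting at 0) in the 3 P6 (blue) and 3 P56 (orange) libraries, with the replicate number as the symbol and the mean ± SD in black. *Tnfrsf11b* was at 7.43 to 8.16 TPM at P6 and 0.32 to 0.85 TPM at P56, *Wisp1* at 5.67 to 7.24 and 0.42 to 0.93 TPM, and the *Tmem119* values of the ages overlapped through P56 replicate 3.

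The P6 and P56 values of *Tnfrsf11b* and of *Wisp1* did not overlap, and those of *Tmem119* did. Among all 312 listed genes, TPM did not overlap in 64.4%, and depth-scaled counts did not overlap in 67.0%. With P6 above P56, the shares were 26.9% for TPM and 33.3% for depth-scaled counts. Since the genes were picked with this contrast known, nothing is read from 2 of 3. In bulk libraries, fewer cells that express a gene and less of its RNA per cell cannot be told apart.

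At P6 the order of the levels in TPM was *Tmem119*, *Tnfrsf11b*, *Wisp1*, and at P56 it was *Tmem119*, *Wisp1*, *Tnfrsf11b*. *Tmem119* was separated from the other two at both ages by far more than the spread. Within a library, its TPM was 5.09 to 5.48 times that of *Tnfrsf11b* at P6 and 56.8 to 132.2 times at P56. *Tnfrsf11b* and *Wisp1* lay close together. *Tnfrsf11b* was above *Wisp1* in all 3 P6 libraries, with ratios within the library of 1.10, 1.09 and 1.44, and their ranges of TPM did not overlap. At P56 the ratios were 0.753, 1.02 and 0.762, the ranges overlapped and the means differed by less than the SD of either gene. The ratio of the *Tnfrsf11b* count to the *Wisp1* count was 1.41 times as large at P6 as at P56, with a 95% exact interval from 0.891 to 2.26 that covers counting error only. The ratios within the library did not overlap between the ages, but only narrowly, at 1.09 in P6 replicate 2 and 1.02 in P56 replicate 2. The latter comes from 14 and 25 counts, so no shift between the 2 genes is read from it.

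Ranked by mean TPM among the 312 listed genes, *Tmem119* was the 88th highest at P6 and the 90th at P56. *Tnfrsf11b* moved from rank 243 to rank 308 and *Wisp1* from rank 259 to rank 302. The median level of the listed genes was 19.5 TPM at P6 and 22.1 TPM at P56, so *Tnfrsf11b* and *Wisp1* lay below it at both ages and *Tmem119* above it. Both were thus genes of modest level at P6, and at P56 they were among the lowest of the table.

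The spread among libraries of one age depended on P56 replicate 3. The coefficient of variation of TPM at P6 was 4.81% for *Tnfrsf11b*, 12.3% for *Wisp1* and 2.22% for *Tmem119*. At P56 it was 43.8%, 37.2% and 11.3%. Each gene had its lowest P56 level in P56 replicate 3. Without that library the P56 values were 13.7%, 8.04% and 6.63%. These come from 2 libraries, too few for the spread to be compared with that at P6. In P56 replicate 3 the 5 counts of *Tnfrsf11b* have a 95% exact Poisson interval from 1.62 to 11.7, and the other P56 libraries would give 11.3 counts at its depth. Its 12 counts of *Wisp1* have an interval from 6.20 to 21.0, below the 23.5 counts that the other P56 libraries would give. Its 488 counts of *Tmem119* have an interval from 445.7 to 533.3, with 545.9 counts from the others. Over all fitted genes, the median depth-scaled ratio of this library to the mean of the remaining P56 libraries was 0.882, close to the 0.895 of *Tmem119*, against 0.441 for *Tnfrsf11b* and 0.511 for *Wisp1*. Without P56 replicate 3 the log2 fold change was 3.49 for *Tnfrsf11b*, 3.04 for *Wisp1* and −0.13 for *Tmem119*. These are fitted ratios of 11.2 for *Tnfrsf11b* and 8.24 for *Wisp1*. In TPM the P56 means without it were 0.775 for *Tnfrsf11b*, 0.88 for *Wisp1* and 50.7 for *Tmem119* (n = 2 libraries), and the ratios of P6 to P56 were 10.1, 7.47 and 0.820. The TPM of *Tmem119* then no longer overlapped, with every P6 library below the remaining P56 libraries. Nor did its depth-scaled counts, at 611 to 636 at P6 and 713 and 660 in P56 replicates 1 and 2. Its raw counts, which carry the difference in depth, still overlapped. The ratio of *Tmem119* to *Tnfrsf11b* at P56 was then 56.8 to 75.8.

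The transcript length behind the values did not vary between the ages. The ratio of count to FPKM at unit depth, which is proportional to the effective transcript length used by the authors' software, lay between 41.3 and 42.0 in the 6 libraries for *Tnfrsf11b*, between 75.4 and 76.1 for *Wisp1* and between 30.5 and 30.6 for *Tmem119*. At P6 this ratio was 1.81 times as large for *Wisp1* as for *Tnfrsf11b*. GENCODE's mouse annotation M21 lists a single transcript of 2818 bases for *Tnfrsf11b* and 6 transcripts for *Wisp1*, the longest of 5097 bases, which is 1.81 times as long. For *Tmem119* the ratio relative to *Tnfrsf11b* was 0.733, and its longest annotated transcript, of 2242 bases, is 0.796 times as long. No coordinates are printed, because the sources name no genome build. All counts of these genes were whole numbers.

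Likeness of pattern was measured by the correlation of log2(TPM + 1) over the 6 libraries, a description in which the points share their age and their depth. *Tnfrsf11b* and *Wisp1* had Pearson's r = 0.994 with each other, while *Tmem119* had r = −0.645 with *Tnfrsf11b* and r = −0.621 with *Wisp1*. The genes most like *Tnfrsf11b* were *Col12a1*, the gene of a type XII collagen chain, *Ddah1*, whose product degrades the nitric oxide synthase inhibitor dimethylarginine, and *Anln*, which encodes the cytokinesis protein anillin, with r = 0.998, 0.997 and 0.997. *Wisp1* was most like *Cd109*, a cell surface co-receptor of transforming growth factor beta, *Col12a1* and *Rnd1*, with r = 0.999, 0.998 and 0.997. In all 5 of these genes every P6 library lay above every P56 library in TPM, as in 26.9% of all 312 listed genes. This follows largely from picking them for likeness to *Tnfrsf11b* or *Wisp1*, so nothing is read from it. *Col12a1*, for example, was at 74.1 ± 3.49 TPM at P6 and 7.54 ± 1.40 TPM at P56 (SD, n = 3). High correlations were common with so few libraries in 2 age groups. Of the other 311 genes, 55 had r above 0.9 with *Tnfrsf11b*, 64 with *Wisp1* and 47 with *Tmem119*.

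*Tmem119* was most like *Cyr61*, also named *Ccn1*, a matricellular protein of the same CCN family as *Wisp1*, with r = 0.995. *Cyr61* was at 1314, 1276 and 1278 TPM at P6 and at 1580, 1481 and 1327 TPM at P56. Both genes had their lowest P56 level in replicate 3 and little spread among the P6 libraries. The next were *Diras2*, a Ras-like GTPase at 0.527 TPM at P6 and 1.41 TPM at P56, with r = 0.981, and *Myof*, which encodes the membrane repair protein myoferlin, with r = 0.972. The P6 level of *Diras2* was below the pseudocount of 1. Unlike *Tmem119*, *Cyr61*, *Diras2* and *Myof* had every P6 library below every P56 library in TPM, *Cyr61* by a narrow margin. Their log2 fold changes at the recovered depth were −0.06, −1.28 and −0.42. Measured on the deviations from the age means alone, so that age itself does not enter, *Cyr61* was again first for *Tmem119* (r = 0.996), followed by *Hyou1* and *Lamb2*. The deviations of *Wisp1* were most like those of *Luzp1*, *Ccnd1* and *Crybg3*, and those of *Tnfrsf11b* most like those of *Lrrfip1*, *Col4a5* and *Col16a1*. High correlations were common here too. Of the other 311 genes, 68 had deviations with r above 0.9 with *Tmem119*, 95 with *Wisp1* and 15 with *Tnfrsf11b*. Each of these regulators had its lowest P56 level in replicate 3, and that library enters all of these correlations. The deviations of *Tnfrsf11b* and *Wisp1* had r = 0.674 with each other, lower than over the levels. Those of *Tmem119* had r = 0.779 with *Tnfrsf11b* and r = 0.819 with *Wisp1*, opposite in sign to the correlations of the levels.

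**Figure D2:**
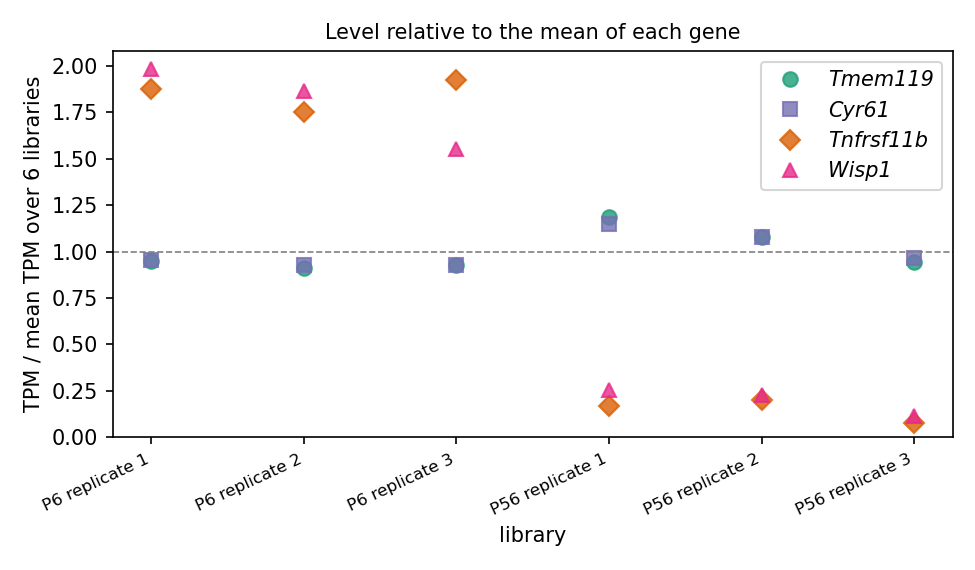
TPM of *Tmem119*, *Cyr61*, *Tnfrsf11b* and *Wisp1* in each of the 6 libraries (horizontal axis), divided by the mean TPM of the gene over the libraries (vertical axis, linear, from 0; dashed line at 1). *Tmem119* and *Cyr61* stay near 1 and move together, while *Tnfrsf11b* and *Wisp1* are well above 1 in every P6 library and well below 1 in every P56 library.

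Other genes of the pathways around these regulators were taken from 6 fixed lists, of which 16 genes were in the table. The lists were chosen with earlier results of these data known, so the p-values of their genes are read as descriptions. These 16 genes were compared between the ages with edgeR's quasi-likelihood test at the recovered depth. The Benjamini-Hochberg adjustment was over all 310 fitted genes, with n = 3 libraries per age. Of the 16 genes, 13 passed an adjusted *p* of 0.05, with 9 higher at P6 and 4 higher at P56. Among all genes fitted, 64.2% passed, with 30.3% higher and 33.9% lower at P6. For the 16 genes the median log2 fold change was 0.45, and it was −0.03 over all fitted genes. The listed genes had been selected by the authors under a rule that these sources do not state. The deposit labels them as differentially expressed genes and gives a comparison of infants with adults, so the selection may rest on this same contrast. These counts therefore do not describe the pathways as a whole.

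In the Wnt pathway 5 of 88 genes were listed, and all 5 were higher at P6, as were 30.3% of all fitted genes. *Rspo3*, which encodes a secreted amplifier of Wnt signaling, had 110, 62 and 64 counts at P6 and 9, 16 and 7 counts at P56. Its fitted log2 fold change reached 2.50 (adjusted *p* = 0.000112 from edgeR, standard error 0.36), and like *Tnfrsf11b* and *Wisp1* it had few counts at P56. The receptors *Fzd5* and *Fzd7* had log2 fold changes of 0.82 (standard error 0.15, adjusted *p* = 0.000527 from edgeR) and 0.43 (standard error 0.10, adjusted *p* = 0.00267 from edgeR). *Lef1*, a transcription factor that carries Wnt signals in the nucleus, was at 9.26, 9.70 and 9.15 TPM at P6 and at 7.45, 5.59 and 6.33 TPM at P56, with a log2 fold change of 0.80 (standard error 0.14, adjusted *p* = 0.000527 from edgeR). *Ccnd1*, which encodes cyclin D1 and is a common target of the pathway, had a log2 fold change of 0.56 (standard error 0.09, adjusted *p* = 0.000292 from edgeR). In each of these 5 genes every P6 library lay above every P56 library in TPM, as in 26.9% of all 312 listed genes. The same held for their raw counts, which the greater depth of the P6 libraries also raises. None of the Wnt ligand genes of the list was in the table.

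Of the 10 symbols of the CCN family other than *Wisp1*, older and newer names included, 2 were listed, *Cyr61* and *Ctgf*, and neither passed the test. Their log2 fold changes were −0.06 (standard error 0.07, adjusted *p* = 0.462 from edgeR) and −0.04 (standard error 0.10, adjusted *p* = 0.759 from edgeR). With equal library sizes the values were 0.30 and 0.33, and the direction of both depended on the scaling, since their raw counts were higher in every P6 library than in any P56 library and the mean TPM of both was lower at P6. *Cyr61* was one of the more abundant genes, at 1289 ± 21.4 TPM at P6 and 1463 ± 127.4 TPM at P56 (SD, n = 3), and *Ctgf* was at 51.8 ± 4.71 and 57.7 ± 6.15 TPM. The other names of the list were not in the table.

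Around osteoprotegerin, 1 of 24 genes of its pathway was listed, and neither the ligand gene *Tnfsf11* nor the receptor gene *Tnfrsf11a* was. The listed gene was *Csf1*, which encodes macrophage colony-stimulating factor, the growth factor that macrophages and osteoclast precursors need. *Csf1* was at 184.7, 195.6 and 190.0 TPM at P6 and at 383.6, 344.2 and 260.9 TPM at P56, without overlap. It was lower at P6, at a log2 fold change of −0.65 (standard error 0.10, adjusted *p* = 0.000222 from edgeR), in the opposite direction to *Tnfrsf11b*. With equal library sizes its log2 fold change was −0.29 (adjusted *p* = 0.101 from edgeR), and its raw counts overlapped between the ages.

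In the bone morphogenetic protein (BMP) and Smad list 2 of 45 genes were in the table. *Bmp2*, the gene of an osteoinductive ligand, was at 59.3 ± 1.37 TPM at P6 and 46.8 ± 6.82 TPM at P56 (SD, n = 3) and was higher at P6, with a log2 fold change of 0.46 (standard error 0.10, adjusted *p* = 0.00163 from edgeR). *Ltbp1*, which encodes a protein that holds transforming growth factor beta in the matrix, had a log2 fold change of 0.04 (adjusted *p* = 0.752 from edgeR) and of 0.40 with equal library sizes (adjusted *p* = 0.0212 from edgeR). Of 57 osteoblast and bone matrix genes 4 were listed, and they split evenly. *Igf1r*, the receptor of insulin-like growth factor 1, and the collagen gene *Col5a2* were higher at P6, with log2 fold changes of 0.92 and 0.50. *Smpd3*, a sphingomyelinase needed for mineralization, and *Mgp*, an inhibitor of calcification, were lower at P6, with log2 fold changes of −4.33 and −0.79. Of 25 cartilage genes 2 were listed, of which *Col2a1*, the gene of type II collagen, was higher and *Prelp*, which encodes a small leucine-rich matrix protein, was lower at P6. *Col2a1* had 2, 1 and 0 counts at P56, too few for a fold change to be stated.

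**Figure D3:**
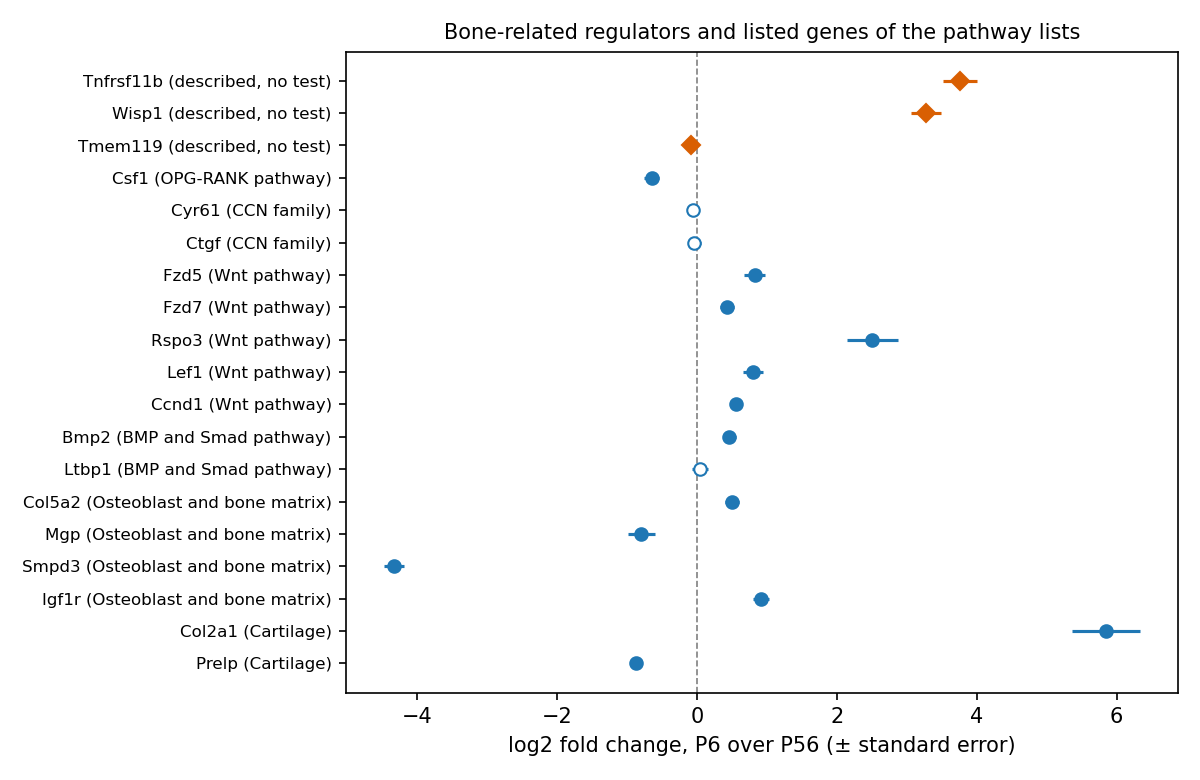
Log2 fold change, P6 over P56, at the recovered depth (horizontal axis, bars ± standard error) of *Tnfrsf11b*, *Wisp1* and *Tmem119* (orange diamonds, shown without a test) and of the 16 listed genes of the pathway lists (blue circles, filled where the adjusted p from edgeR was under 0.05). The 5 Wnt pathway genes lie to the right of 0, *Cyr61* and *Ctgf* lie at about 0 beside *Tmem119*, and *Csf1* lies to the left of 0; the fitted value of *Col2a1* depends on the prior count.

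Some listed smooth muscle and pericyte markers were higher at P6, as *Tnfrsf11b* and *Wisp1* were, and the 2 listed skeletal muscle markers were lower. Of the 10 smooth muscle and pericyte markers 5 were listed, and 4 of them, *Acta2*, *Tagln*, *Cnn1* and *Mcam*, were higher at P6, where 30.3% of all fitted genes were, while *Cspg4* had a log2 fold change of 0.23 (adjusted *p* = 0.237 from edgeR). The TPM of *Tagln* overlapped between the ages. Contractile genes outside the fixed lists went both ways, such as *Myl9* with a log2 fold change of 0.61 and *Tpm2* with −0.30. The muscle gene *Myom1*, also outside the lists, had 0.41 (adjusted *p* = 0.0701 from edgeR). The summed TPM of the 5 was between 898.2 and 1263 in the P6 libraries and between 623.0 and 743.0 in the P56 libraries. The 2 listed skeletal muscle markers, *Acta1* and *Neb*, were lower at P6, as were 33.9% of all fitted genes. Their summed TPM was between 150.9 and 173.3 at P6 and between 542.3 and 562.3 at P56, nearly all of it from *Acta1*. None of these markers was at 0 in any library, but *Neb* was near it, at 0.17 to 0.21 TPM at P6 and 0.51 to 0.78 TPM at P56. The part of these cells in the values of *Tnfrsf11b*, *Wisp1* and *Tmem119* was not tested.

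**Figure D4:**
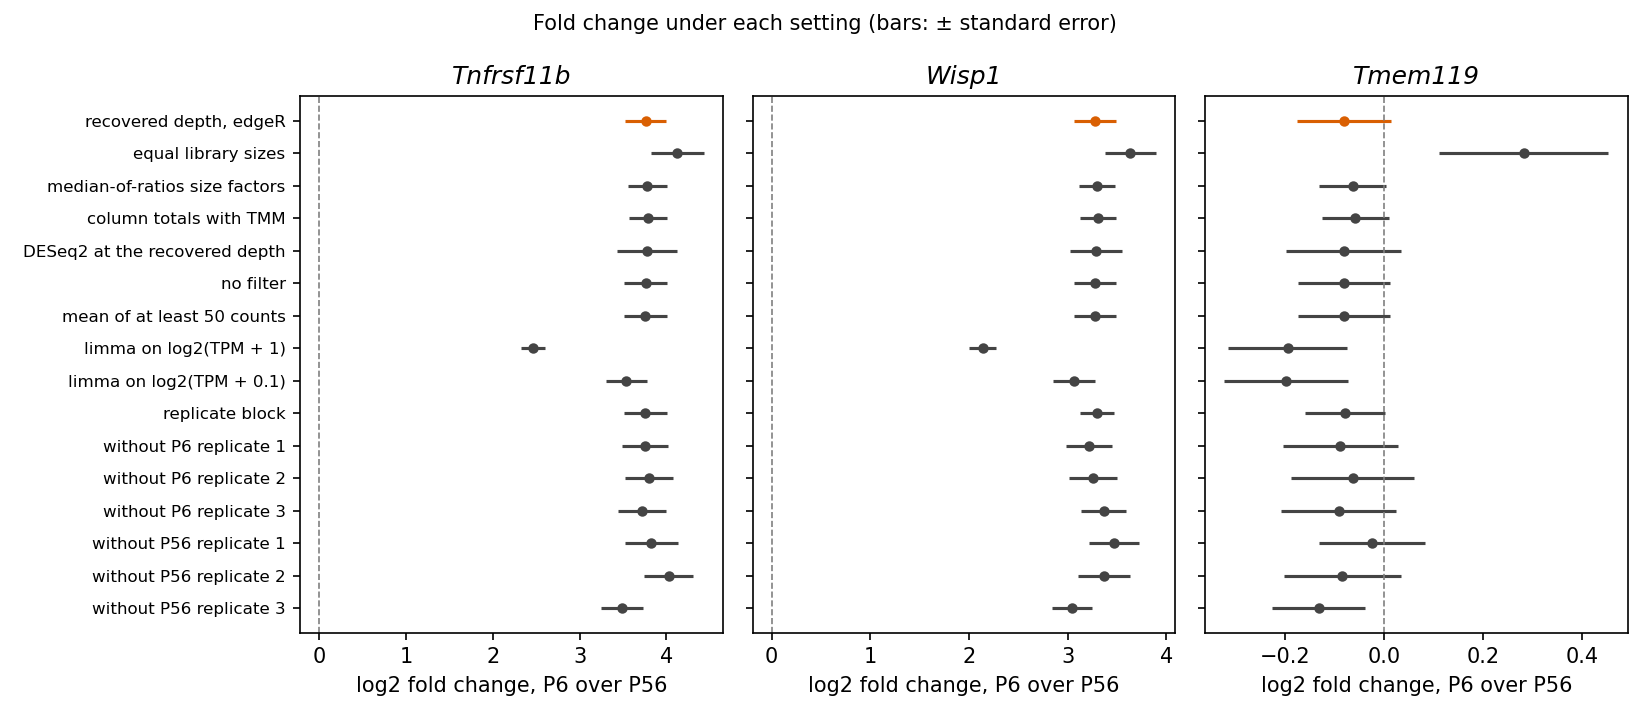
Log2 fold change, P6 over P56 (horizontal axes, different ranges, bars ± standard error), of *Tnfrsf11b*, *Wisp1* and *Tmem119* under each scaling, tool, filter and left-out library; orange marks edgeR at the recovered depth and the dashed line marks 0. *Tnfrsf11b* and *Wisp1* stay to the right of 0 in every setting, with their lowest values, 2.46 and 2.14, on the log2(TPM + 1) scale, and *Tmem119* is to the right of 0 with equal library sizes alone.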

How the data were processed

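According to the paper and the submitters' processing notes, the authors aligned reads of a BGISEQ-500 platform with HISAT and Bowtie2, estimated expression with RSEM and compared groups with DESeq2, in versions and on a genome build not given in the sources used here. Poly(A) RNA had been captured from total RNA. For each library, the authors deposited unnormalized estimated counts beside TPM and FPKM, whose scaling covers the full transcriptome rather than the listed genes. The authors' deposited log2 ratio, p-value and q-value columns, 3 in all, were not used.

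Counts were rounded (23.0 genes had a value that was not whole) and fitted by quasi-likelihood in edgeR 4.0.16 under R 4.3.3 (no covariates, a mean of at least 10 counts, 310 genes, Benjamini-Hochberg adjustment, adjusted p under 0.05). Library sizes were set to the depth recovered from count over FPKM, taken as the median of the 196 genes whose FPKM exceeded 5 throughout, because totals of selected genes carry their own differences. Standard errors were obtained by dividing each log2 fold change by the root of its F value. The edgeR fit alone was tested on simulated counts. Intervals cover counting error only.

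The genes, the lists and the scaling were chosen with earlier results of these data known. Named are the 3 regulators, the listed genes of the pathway and marker lists, and the 3 genes most like each regulator. Nothing says that the libraries came from separate mice, so p-values measure the spread between these libraries, which may be technical. Replicates differed by more than sampling noise. Alternatives were equal library sizes, median-of-ratios size factors, column totals with TMM, DESeq2 1.42.0, an unfiltered table, a minimum mean of 50 counts, limma 3.58.1 on log2(TPM + 1) and log2(TPM + 0.1) where the mean reached 1 TPM, the replicate number as a block and each library left out. *Tnfrsf11b*, *Wisp1* and *Tmem119* were not matched in the promoter table used, and no sequence is printed.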

Additional observations from a re-analysis of the deposited data

How the results depend on the processing

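The direction of *Tnfrsf11b* and of *Wisp1* was the same under every alternative run. On the log2(TPM + 1) scale, where the pseudocount of 1 exceeds the P56 levels of both genes, their log2 fold changes were 2.46 and 2.14. With each replicate left out in turn they ranged from 3.49 to 4.03 and from 3.04 to 3.47, and that of *Tmem119* from −0.13 to −0.02. *Tmem119* moved to 0.28 with equal library sizes, to −0.19 on log2(TPM + 1) and to −0.20 on log2(TPM + 0.1). Over the whole table, equal library sizes gave 148 genes higher and 34 lower at P6 in place of 94 and 105, so 81.3% of the calls were higher in place of 47.2%. With each replicate left out, between 172 and 221 genes were called, with 86 to 104 higher and 82 to 121 lower at P6. The fixed pathway lists kept 13 calls, 9 higher and 4 lower, in each of these. The 16 list genes were followed over the alternatives other than log2(TPM + 0.1). Of their 221 values, 219 kept their side of the threshold, the exceptions being *Csf1* and *Ltbp1* with equal library sizes. Filters left *Rspo3* without a value at a minimum mean of 50 counts, and *Col2a1* without one there and on log2(TPM + 1). With the replicate block 213 genes were called, 104 higher and 109 lower, against 199 without it. The block changed no call of the 16 genes. Deviations of same-numbered libraries had correlations of 0.0967, 0.131 and 0.239 over 310 genes, the first of them below 0.1, and the numbers were taken as names only. Depth limits *Tnfrsf11b* and *Wisp1* at P56, where they had 31 and 66 counts in all.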
